A study of Caenorhabditis elegans with 4 samples.

Results

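The skr genes of Caenorhabditis elegans encode relatives of Skp1, and 10 of them (skr-3, skr-4, skr-5, skr-7, skr-8, skr-9, skr-10, skr-12, skr-13 and skr-14) form the set described here. They were chosen by the measured ratios of skr-8 and skr-9, after both had been seen far lower in L3 larvae than in the reference. The members were found by gene symbol in the probe annotation, which names probes for 6 of the 10 genes, among 14921 named genes tested (7 of 21632 probes). skr-4, skr-7, skr-10 and skr-14 have no probe under their names there and are not analysed here. All 6 measured members had a value on each of the 4 arrays, and all passed the filter of a value on at least 3 arrays. Because the same contrast chose the set, ratios of members are given as a description, with no p-value. Where members are counted as past the threshold of the fit over all genes, the count is also only a description.

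Skp1 is the adaptor of SCF ubiquitin ligases. It binds the scaffold protein cullin on one side and an F-box protein on the other, and the F-box protein holds the substrate that is to be ubiquitinated. Most animals rely on very few Skp1 genes, while nematodes carry an expanded family, of which RefSeq (assembly WBcel235) names 21 in C. elegans. skr-1 and skr-2 are the members best known to limit cell proliferation. Knockdown of skr-7, skr-8, skr-9 or skr-10 is known to disturb embryonic and larval development, and skr-3, skr-4 and skr-5 are known to act with the cullin CUL-6 in tolerance of heat and protein stress.

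RNA of wild-type worms at the third larval stage, L3, was measured on 4 DNA microarrays read in 2 colours. On every array the second channel held 1 of 4 numbered L3 preparations, and the first held a mixed reference, also wild type. Neither the make-up of that reference nor the ages, cultures or dyes are given in the sources used here, so the spread between preparations may be technical. Values are log2 ratios, centred on the median of each array and likely to run L3 over reference, so that a negative value means less transcript in L3; errors are SD over the 4 preparations. A ratio does not tell a loss of RNA per cell from a smaller share of the cells that hold it. All 4 measured adult markers, the yolk protein genes vit-2, vit-5 and vit-6 and the adult collagen gene col-19, lay below 0 on every array, with a list median of -5.40. Array spread differed, with a median absolute deviation of 0.38, 0.58, 0.39 and 0.28 in preparations 1 to 4.

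skr-8 and skr-9 had the lowest mean ratios of the family over the 4 arrays. skr-9 lay at -3.0, -3.80, -2.76 and -2.37 in preparations 1 to 4, a mean of -2.98 ± 0.60 (SD, n = 4), or 7.90-fold lower in L3. skr-8 lay at -2.20, -4.41, -2.76 and -2.48, a mean of -2.96 ± 0.99 (n = 4), or 7.80-fold lower. Each gene stayed below -2 on every array. skr-8 was the lower of the pair in preparations 2 and 4 and skr-9 in preparation 1, and both had the same value in preparation 3. Of 19928 genes and probes tested, 142 had a lower mean than skr-9 and 144 a lower mean than skr-8. As deposited, before centring, the values of skr-8 equal ratios of 0.221, 0.047, 0.145 and 0.178, and those of skr-9 equal 0.127, 0.072, 0.145 and 0.192. The deposited ratios are rounded to steps of 0.001, and the rounding error at the smallest of them is at most 0.015 on the log2 scale, far less than the spread between preparations.

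skr-13 and skr-12 lay below 0 by less. skr-13 lay at -1.66, -2.90, -1.68 and -1.27, a mean of -1.88 ± 0.71 (n = 4), or 3.67-fold lower. skr-12 lay at -0.94, -3.11, -0.97 and -0.76, a mean of -1.44 ± 1.12 (n = 4). In both genes preparation 2 was the lowest, and for skr-12 the other 3 preparations lay between -0.97 and -0.76. Without preparation 2 the mean of skr-12 was -0.89 and that of skr-13 was -1.54.

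skr-5 was the only member measured by a pair of probes, and they parted on 1 array. The mean of both lay at -1.77, -2.34, -2.02 and -0.16, or -1.57 ± 0.97 (n = 4). Probe 2805039 was low throughout, at -1.57, -2.38, -2.16 and -1.74 (mean -1.96 ± 0.37). Probe 2803351 was as low in preparations 1 to 3, at -1.97, -2.30 and -1.88, and stood at 1.42 in preparation 4, which left it a mean of -1.18 ± 1.75. The deposited ratios of these probes on that array were 0.296 and 2.658. Without preparation 4 the mean of skr-5 was -2.04. skr-6 and skr-19, the other skr genes with a pair of probes, had their largest disagreement in preparation 2 and preparation 1, at -0.26 against 0.77 and at -1.62 against -0.84.

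**Figure D1:**
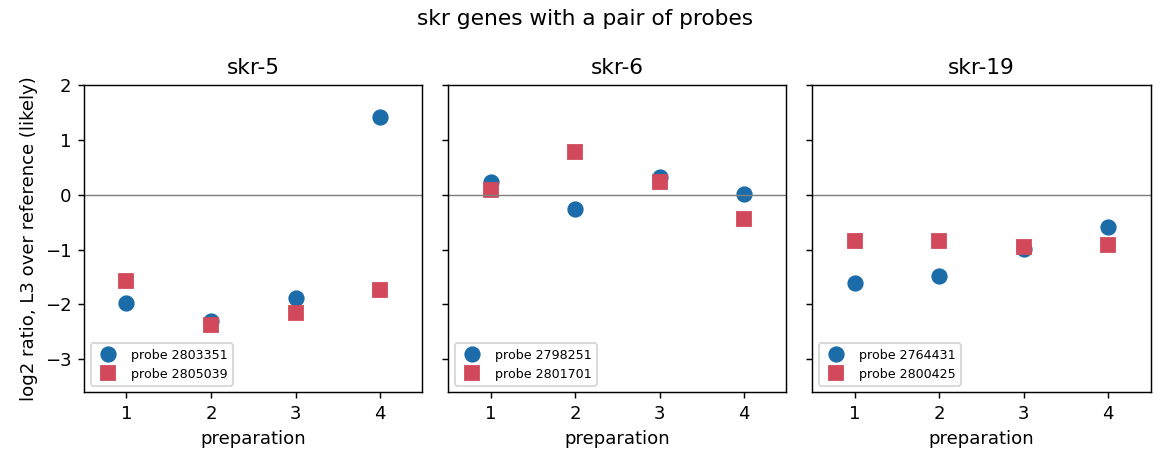
Centred log2 ratio (vertical axis) of each probe of the 3 skr genes measured by a pair of probes, in preparations 1 to 4 (horizontal axis). Both probes of skr-5 lie between -2.38 and -1.57 except probe 2803351 in preparation 4, at 1.42.

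skr-3 was not low in L3, against the description of the set. It lay at 0.58, 0.51, 0.15 and 0.72, a mean of 0.49 ± 0.24 (n = 4), and was above 0 on all 4 arrays. Its mean ranks at percentile 81.2 of all genes and probes tested, while the other 5 measured members lie between percentiles 0.718 and 3.63. skr-3 and skr-5, both on chromosome V and both known as partners of CUL-6, therefore lay on opposite sides of 0 in every preparation, with a gap of 0.88 to 2.85, although probe 2803351 of skr-5 was above 0 in preparation 4.

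**Figure D2:**
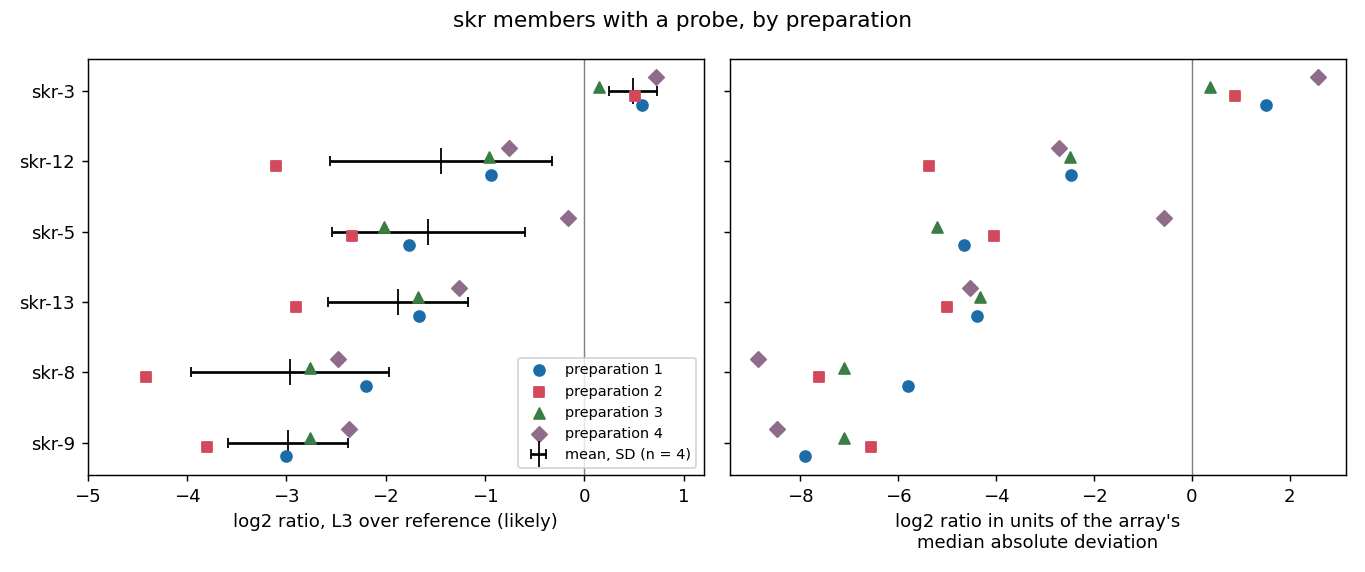
Log2 ratio of the 6 measured members in each preparation (left, with mean and SD, n = 4) and the same values divided by the median absolute deviation of their array (right). skr-8 and skr-9 lie lowest, skr-3 lies above 0, and the low point of skr-12 is preparation 2 in both panels.

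In the limma fit over all 19928 genes and probes, with Benjamini-Hochberg adjustment and a threshold of 0.05, 4 of 6 members were called lower (skr-5, skr-8, skr-9 and skr-13) and 0 higher; 5 were lower and 1 higher at an unadjusted p under that threshold. Of all genes and probes tested, 10.8% were called lower and 8.32% higher after adjustment. The shares at an unadjusted p are not given, so the unadjusted counts here and below have no background beside them. As the set was picked on this contrast, nothing is read from its count. The median of the 6 members was -1.73, against 0.02 for all genes and probes. skr-12 and skr-3 were not called. skr-5 was past the threshold with all 4 arrays but not without preparation 1, 2 or 3 (means -1.51, -1.32 and -1.42), nor with preparations 3 and 4 alone (-1.09). skr-12 was past it without preparation 2 (mean -0.89), with arrays scaled to equal spread (-1.32), with quantile normalization (-1.37), with a value required on all 4 arrays and with the month as a block (both -1.44). With 1 preparation left out in turn, means ran from -3.22 to -2.48 for skr-8, from -3.19 to -2.71 for skr-9 and from -2.08 to -1.54 for skr-13.

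Preparation 2 held the lowest value of 5 of the 6 members, and its array had the widest spread. Preparation 2 was lowest for 28.8% of all genes and probes with 4 values and for 47.2% of those called lower. Divided by the median absolute deviation of each array, skr-9 stood at -7.91, -6.56, -7.11 and -8.48 and skr-8 at -5.80, -7.62, -7.11 and -8.87, so that on this scale preparation 4 was the lowest for both. skr-13 came to lie within a narrow range on this scale, at -4.38, -5.01, -4.32 and -4.54. skr-12 still stood apart in preparation 2, at -2.47, -5.37, -2.49 and -2.71. The array names carry 1 of 2 months, with preparations 1 and 2 in the first set and 3 and 4 in the second. Within these sets the means were -3.31 and -2.62 for skr-8, -3.40 and -2.56 for skr-9, -2.28 and -1.47 for skr-13, -2.02 and -0.86 for skr-12, -2.06 and -1.09 for skr-5, and 0.54 and 0.43 for skr-3. Each member had all 4 values on the same side of 0, so its side could not differ between the sets.

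skr-13, skr-9, skr-8 and skr-12 are next to each other on chromosome IV, in this order and with 0 protein-coding genes or pseudogenes of other families between them in the RefSeq annotation. The inner pair, skr-9 and skr-8, had a mean of -2.97 and the outer pair one of -1.66. The inner pair are the genes whose low ratios chose the set, so nothing is read from this order. Of the 5 nearest protein-coding genes or pseudogenes on each side, 9 of 10 were measured, and their means ran from -0.36 (itsn-1) to 1.88 (col-138), with a median of 0.27. In limma 0 of these 9 were called lower and 1 higher, against 10.8% and 8.32% of all genes and probes. At an unadjusted p under 0.05 the counts were 0 and 3, with no share over all genes and probes given. The higher gene was the collagen gene col-138 at 1.88 ± 1.46 (limma adjusted p = 0.0499, positive on 4 of 4 arrays), named after its values were seen. It was not called without preparation 1, 2 or 3 (adjusted p = 0.151, 0.0644 and 0.0718), nor with a value required on only 2 arrays, at probe level or with the robust prior (0.0516, 0.0506 and 0.0581). The neighbours were looked up after the ratios of the cluster were known. Beside the adjacent skr-14 and skr-7 on chromosome V, 0 of 10 flanking genes were measured. At the other runs of adjacent skr genes, 1 of 9 measured flanking genes was called lower on chromosome X (K08H2.3, -1.62, limma adjusted p = 0.00929) and 2 of 7 on chromosome I (twk-29, -0.96, and C17E4.10, -0.91, limma adjusted p = 0.0193 and 0.0252). The share over all genes and probes was 10.8%, and these 3 genes were named after their values were seen. twk-29 was not called without preparation 1 or 3 (0.0596 and 0.0736), nor C17E4.10 without 1, 2 or 3 (0.0933, 0.0671 and 0.0920). The 4 genes of the cluster resemble each other in sequence, and the probe sequences were not analysed here. A probe may thus bind RNA of more than 1 of them, and the single values are not fully separate measurements. The same limit may hold for the probes of the other skr genes, and RNA of skr genes without a probe may also be bound.

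**Figure D3:**
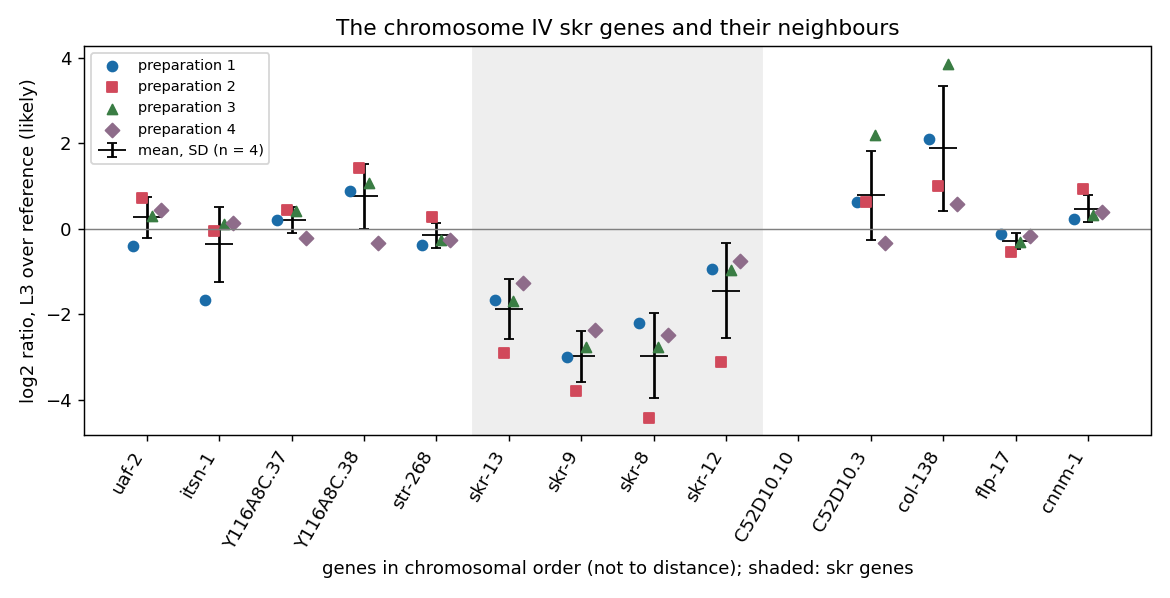
Log2 ratio (vertical axis) of the 4 skr genes on chromosome IV (shaded) and the 5 nearest genes on each side, in chromosomal order and not to distance, with points for preparations 1 to 4 and bars for mean and SD (n = 4). The skr genes lie below 0 on every array and the measured neighbours have means between -0.36 and 1.88; C52D10.10 has no value.

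A further 10 skr genes have probes, and 9 of them had means below 0, as had 9655 of all 19928 genes and probes. In limma 6 of 10 were called lower and 0 higher, against 10.8% and 8.32% of all genes and probes. At an unadjusted p under 0.05, 9 were lower and 0 higher, and 9 of 10 were negative on all 4 arrays. The shares of all genes and probes for these last counts are not given, so nothing is read from them. The median of the 10 genes was -0.77. These genes belong to the same family but not to the chosen set, and were looked at with the ratios of the set known. skr-18 is not analysed here.

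skr-15 had the lowest mean after skr-9 and skr-8, and the lowest single value of the family, in preparation 2. It lay at -2.40, -4.57, -1.90 and -0.98 in preparations 1 to 4, a mean of -2.46 ± 1.53 (n = 4, limma adjusted p = 0.0250, negative on 4 of 4 arrays). Without preparation 2 its mean was -1.76. Its 4 values spread over 3.59, more than those of any other skr gene, and it was no longer called without preparation 1 (adjusted p = 0.0858) or preparation 3 (0.0604). skr-11, annotated as a pseudogene on chromosome V, lay at -0.92, -2.17, -1.27 and -0.93, a mean of -1.32 ± 0.59 (adjusted p = 0.0140). Its call was lost without preparation 3 (0.0504) and with preparations 1 and 2 alone (0.0734). skr-17 lay at -1.29, -1.25, -1.68 and -0.80, a mean of -1.26 ± 0.36 (adjusted p = 0.00679), and stayed called without any single preparation (adjusted p from 0.0129 to 0.0351). It was not called with preparations 1 and 2 alone or with 3 and 4 alone (limma adjusted p = 0.0502 and 0.0583). All 3 genes are thus negative on every array. Preparation 2 held the lowest value of skr-15 and skr-11, and of 4 of these 10 further skr genes in all. It was lowest for 28.8% of all genes and probes with 4 values and for 47.2% of those called lower.

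A second run of adjacent genes, skr-20, skr-19 and skr-21 on chromosome X, was lower by less. skr-19 lay at -1.03 ± 0.22 (limma adjusted p = 0.00742) and skr-20 at -0.80 ± 0.17 (0.0149, lost without preparation 3 at 0.0650), each negative on 4 of 4 arrays. Neither skr-19 (limma adjusted p = 0.0579 and 0.0736) nor skr-20 (0.173 and 0.0618) was called with preparations 1 and 2 alone or with 3 and 4 alone. skr-21 lay at -0.50 ± 0.21 and was not called (limma adjusted p = 0.0696), except with the month as a block (0.0498). The adjacent pair on chromosome I, skr-2 and skr-1, lay at -0.75 ± 0.27 and -0.46 ± 0.19 (limma adjusted p = 0.0250 and 0.0828), again with negative values throughout. skr-2 was not called without preparation 1, 3 or 4 (adjusted p = 0.0648, 0.0963 and 0.0793). skr-16 lay at -0.45 ± 0.24 and skr-6 at 0.12 ± 0.23 (limma adjusted p = 0.101 and 0.618), and neither was called. In order of the mean, the family thus ran from skr-9, skr-8 and skr-15 through skr-13, skr-5, skr-12, skr-11, skr-17 and skr-19 to skr-6 and skr-3. Mean ± SD overlapped for 14 of the 15 pairs next to each other in this order, all but skr-16 and skr-6. Genes next to each other after sorting lie close by construction, so nothing is read from this overlap.

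**Figure D4:**
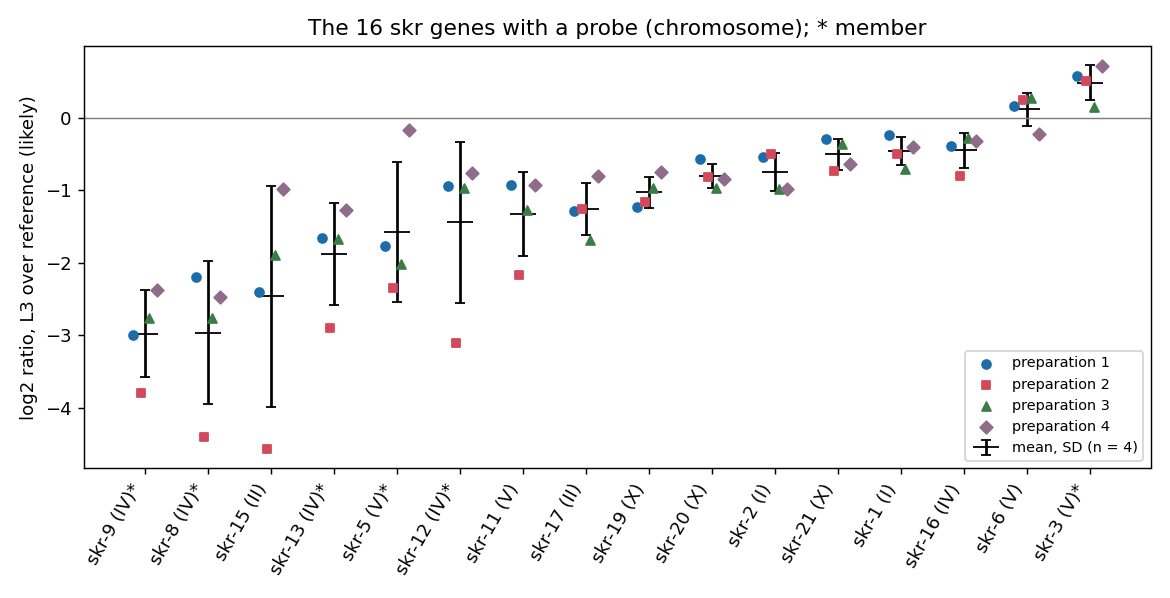
Log2 ratio (vertical axis) of the 16 skr genes with a probe, ordered by mean, with chromosome in brackets and an asterisk on the members; points are preparations 1 to 4 and bars mean and SD (n = 4). Of the 16 genes, 14 have means below 0, from -2.98 (skr-9) to -0.45 (skr-16), and skr-6 and skr-3 lie above. Of all 19928 genes and probes, 9655 have means below 0.

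The cullin and RING genes encode the scaffold of these ligases and the part that recruits the ubiquitin-carrying enzyme. Of 7 measured, limma called 0 lower and 0 higher, and the list median was -0.30. With 10.8% and 8.32% of all genes and probes called, so short a list could hold 0 either way. Unadjusted counts were 2 and 1 (limma p under 0.05), with no unadjusted share over all genes and probes given. Whether these genes differ from the skr genes was not tested. cul-1, the cullin of SCF ligases, lay at -0.40, 0.05, 0.25 and 0.24, a mean of 0.03 ± 0.31 (limma adjusted p = 0.905). cul-6, the partner of skr-3, skr-4 and skr-5, lay at 0.14, 1.23, 0.60 and 0.49, a mean of 0.61 ± 0.45 (adjusted p = 0.0857, positive on 4 of 4 arrays). The values of cul-1 fell on both sides of 0, while those of cul-6 were above 0 without passing the threshold. The RING genes rbx-1 and rbx-2 lay at -0.48 ± 0.35 and -0.67 ± 0.41 (limma adjusted p = 0.116 and 0.0592), and rbx-2 was called with quantile normalization, with arrays scaled to equal spread and with the month as a block (0.0384, 0.0431 and 0.0408). cul-2, cul-4 and cul-5, scaffolds of other ligases, lay at 0.07 ± 0.31, -0.30 ± 0.41 and -0.39 ± 0.40 (limma adjusted p = 0.800, 0.317 and 0.199).

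Among F-box genes with a known role, 4 of 9 measured were called lower and 1 higher in limma, against 10.8% and 8.32% of all genes and probes. At an unadjusted p under 0.05 the counts were 8 and 1, with no share over all genes and probes given. The list median was -0.70. fsn-1, which acts in synapse formation, lay at -1.27 ± 0.24, skpt-1, the relative of mammalian Skp2, at -1.16 ± 0.28, and prom-1, needed for meiotic entry and chromosome pairing, at -1.05 ± 0.36 (limma adjusted p = 0.00407, 0.00629 and 0.0122). With preparations 1 and 2 alone none of these was called (limma adjusted p = 0.0610, 0.0595 and 0.0623). With 3 and 4 alone fsn-1 was called (0.0290), while skpt-1 and prom-1 were not (0.0542 and 0.0790). fog-2, needed for sperm formation in hermaphrodites, lay at -0.93 ± 0.41 (adjusted p = 0.0224), and its call was lost without preparation 2, 3 or 4 (0.0584, 0.0845 and 0.0708). dre-1, a gene of developmental timing and moulting, was the higher gene, at 0.23, 0.68, 1.15 and 1.62, a mean of 0.92 ± 0.60 (limma adjusted p = 0.0462). It was not called without preparation 2, 3 or 4 (adjusted p = 0.0775, 0.138 and 0.113), nor with quantile normalization (0.0605) or with arrays scaled to equal spread (0.0738). The remaining genes did not pass. lin-23, which limits cell division, lay at -0.53 ± 0.39, sel-10, which acts in Notch turnover, at -0.45 ± 0.14, mec-15, of touch neurons, at -0.49 ± 0.12, and fbxa-158, a partner of CUL-6, at -0.70 ± 0.53 (limma adjusted p = 0.105, 0.0762, 0.0605 and 0.0778). mec-15 was called with scaled arrays, quantile normalization and the month block (adjusted p = 0.0480, 0.0453 and 0.0439).

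Adaptors and substrate receptors of the other cullins split. Of 9 measured, limma called 4 lower and 0 higher, against 10.8% and 8.32% of all genes and probes, with a median of -0.11. At an unadjusted p under 0.05 the counts were 4 and 1, with no share over all genes and probes given. zif-1, whose protein works with CUL-2 to clear germ plasm proteins from somatic cells of the embryo, lay at -1.81 ± 0.33, and zyg-11, a CUL-2 receptor of meiosis and the early embryo, at -1.39 ± 0.17 (limma adjusted p = 0.00197 and 0.00244). zyg-11 was not called with preparations 1 and 2 alone (limma adjusted p = 0.0509). mel-26, the CUL-3 adaptor that removes katanin after meiosis, lay at -0.80 ± 0.21 (adjusted p = 0.0172, lost without preparation 1 or 3 at 0.0515 and 0.0724), but its probes differed, with means of -1.42 and -0.18. cdt-2, a CUL-4 receptor named here after its values were seen, lay at -0.76 ± 0.31 (limma adjusted p = 0.0280, lost without preparation 1, 2 or 3 at 0.0809, 0.0663 and 0.0988). Of the NEDD8 cycle, which switches cullins on and off, 0 of 7 measured genes were called in limma. Over all genes and probes 10.8% were called lower and 8.32% higher, and so short a list could hold 0. Unadjusted, 3 of the 7 genes were lower and 0 higher, with no unadjusted share over all genes and probes given. The median of the 7 genes was -0.34. The lowest of them was csn-5, the COP9 subunit that removes NEDD8, at -0.53 ± 0.24 (adjusted p = 0.0630; 0.0495 with quantile normalization and 0.0448 with the month block). The ubiquitin-activating enzyme gene uba-1 and the conjugating enzyme gene let-70 lay at 0.32 ± 0.33 and -0.27 ± 0.19 (limma adjusted p = 0.245 and 0.257), and the other 18 genes of that list are not analysed here.

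**Figure D5:**
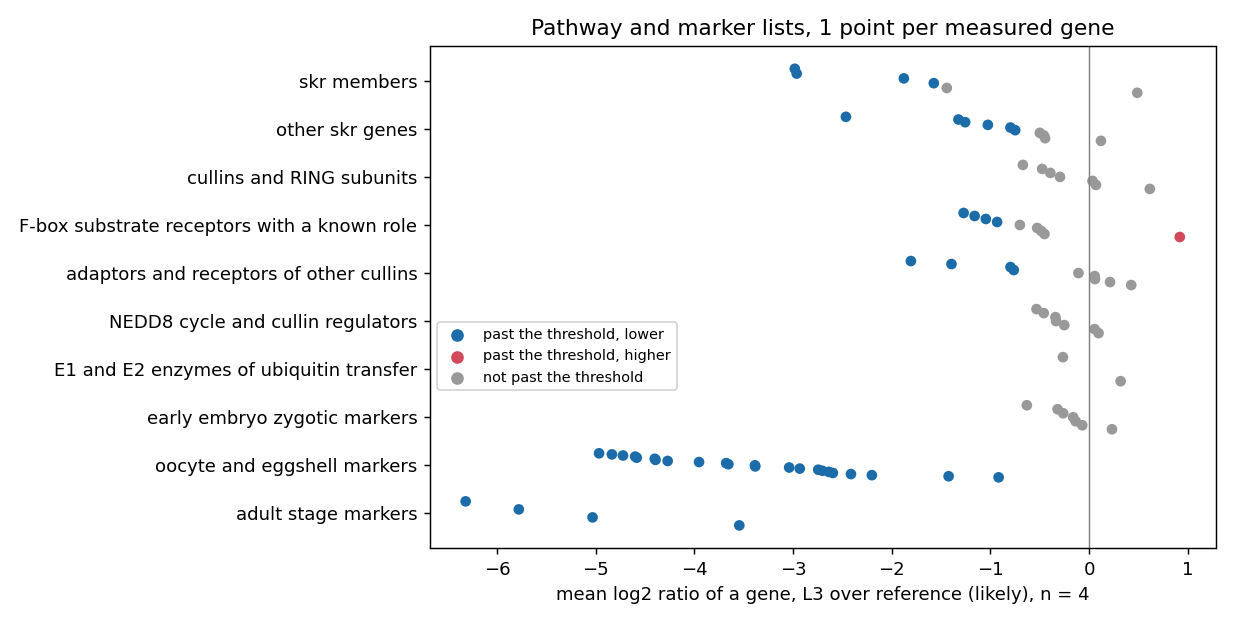
Mean log2 ratio (horizontal axis, n = 4) of each measured gene in the skr set, the 6 pathway lists and the 3 marker lists, coloured by whether it passed the limma threshold. The 7 cullin and RING genes and the 7 NEDD8 genes hold no called gene, as lists this short could by the shares over all genes and probes. The 23 oocyte and eggshell markers are all called lower.

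Markers of oocytes and eggshell moved in the same direction as the low skr genes. Their list was chosen with earlier results of these data known, so its count is only a description. All 23 measured markers of that list were called lower in limma, against 10.8% of all genes and probes. Their means ran from -4.96 (pos-1) to -0.92, with list medians of -3.63, -3.72, -3.50 and -3.20 in preparations 1 to 4. The lowest were pos-1, a maternal RNA-binding protein gene, the eggshell gene perm-2 (-4.83 ± 0.20) and the eggshell proteoglycan gene cpg-2 (-4.72 ± 0.27). Of 7 measured markers of zygotic transcription in the early embryo, limma called 0 (0 lower and 0 higher unadjusted as well), with a median of -0.16. With 10.8% and 8.32% of all genes and probes called, so short a list could hold 0. Whether the zygotic markers differ from the oocyte markers was not tested. Among the 7 zygotic markers med-1, an endoderm and mesoderm specification gene, was lowest at -0.63 ± 0.76 (limma adjusted p = 0.178). The part of oocytes, or of adults, in the ratios of the skr genes was not tested.

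By Euclidean distance over the 4 arrays, among 14532 named genes outside the family with 4 values, the genes nearest to the mean profile of skr-8 and skr-9 were grl-17, F14D7.2, ZK829.9, ftn-1 and W09G12.7, at distances of 0.52, 0.55, 0.60, 0.63 and 0.68. skr-8 and skr-9 themselves each lie 0.51 from that mean. grl-17, of the hedgehog-related family, stood at -2.75, -3.74, -2.86 and -2.10, and the ferritin gene ftn-1 at -2.64, -3.61, -3.12 and -2.27. Both were lowest in preparation 2, as is the profile they were picked to resemble, so nothing is read from it. Over 4 arrays of 1 stage this distance reflects mainly the depth of the ratio.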

How the data were processed

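The authors deposited log2 ratios of both channels for 21632 probes and 4 arrays. Their background correction, normalization and spot filter are not stated in the labels. When 2 is raised to the deposited values, 99.96% to 100.0% per array are multiples of 0.001 (within 0.02 of a step), against at most 5.42% of the inverse. The dyes are unlabelled, so the direction is likely only. Deposited medians were 0.02, 0.00, -0.03 and -0.01, and arrays correlated at 0.620 to 0.723 over probes. Spot signal is unknown, so precision rests on the array number alone.

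Symbols came from the platform annotation and were updated by Entrez number to RefSeq WBcel235 (16360 probes; 90 kept the old symbol). 247 probes with several symbols and 4935 without were kept apart. Arrays were median-centred, probes of a gene averaged, and features with values on at least 3 arrays tested (19928) with limma 3.58.1 in R 4.3.3, intercept only, two-sided, Benjamini-Hochberg adjusted, after a test on simulated data. The fit leaves out the spread of the reference. Members and lists were chosen with earlier results of these data known. Named genes are all measured skr, cullin, RING and F-box list genes, up to 3 per other list, and 5 nearest profiles; cdt-2, let-70 and genes beside skr runs were named after their values were seen. Alternatives were values as deposited, scaled or quantile-normalized arrays, other filters, probe level, a robust prior, the month as a block, each month alone and each preparation left out.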

Additional observations from a re-analysis of the deposited data

Results flagged for a closer look

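Among 54 named genes, skr-12 was flagged because preparation 2 stood far from the others, at -3.11 against -0.94, -0.97 and -0.76, a gap of 0.911 of the whole range. Among the 6 probes of skr genes measured by a pair of probes, probe 2803351 of skr-5 was flagged for preparation 4, at 1.42 against -1.97, -2.30 and -1.88, a gap of 0.886 of the range, while the second probe of skr-5 read -1.74 on that array. Both gaps exceed Dixon's critical value for 4 samples, and chance flags about 1 in 20 groups.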

How the results depend on the processing

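The count of members called lower was 3 to 5 in every alternative against 4, and 3 to 4 with a preparation left out. Means over the alternatives ran from -3.31 to -2.48 for skr-8, -3.40 to -2.56 for skr-9 and -2.28 to -1.47 for skr-13. They ran from -2.06 to -1.09 for skr-5, -2.02 to -0.86 for skr-12 and 0.41 to 0.60 for skr-3. Each member had the same sign on all 4 arrays, so leaving arrays out could not change the sign of its mean. Over all genes, 2153 were lower and 1659 higher; with preparations 1 and 2 alone the counts were 815 and 699, with 3 and 4 alone 971 and 710, and with 1 preparation left out from 1039 to 1761 and from 882 to 1205. Of the 44 measured genes in the 6 pathway lists, 14 were called lower and 1 higher, against 10.8% and 8.32% of all genes and probes. Of the 14 lower genes, 6 were skr genes outside the chosen set. The count of 15 called in either direction became 2 with preparations 1 and 2 alone and 7 with 3 and 4 alone. With 1 preparation left out it ran from 7 to 12. These fits hold fewer arrays. The other alternatives kept each of these counts within 1.5-fold. No named gene changed sign among those called. With the month as a random block the correlation was negative (-0.117), which lowers standard errors. Each ratio already sets L3 against the reference on the same array, and with 1 group no further pairing was made. Signal over background, and so the precision of the low ratios, is unknown.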
